A study of Saccharomyces cerevisiae with 12 samples.

Results

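The comparison set the wine yeast EC1118 against the yeast M25 after growth in a synthetic grape juice that held no lipids. EC1118 is a commercial Saccharomyces cerevisiae strain, and M25 is a wild-type strain of the same species from a university culture collection. Its members are the 6 arrays of both strains in the lipid-free juice, called SJ here, out of 12 arrays in the series, and every yeast probe set on them was compared. The groups were EC1118 in SJ and M25 in SJ, with 3 biological replicates each. Both strains were precultured for 24 h in SJ at 28°C and then inoculated into fresh SJ at 1000000 cells/ml. SJ holds glucose at 200 g/l and ammonium sulphate at 2 g/l as its nitrogen salt, at pH 3.3, and the cells were harvested 60 h after inoculation. The other 6 arrays, EC1118 and M25 in FSJ, 3 each, come from the same juice with ergosterol and oleic acid added at 15 mg/l each. They served to measure the strain difference again in other cultures.

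Yeast needs oxygen to make ergosterol and to desaturate fatty acids, so in a juice without lipids the membranes of fermenting cells depend on what the cells make early or inherit. Wine strains of this species differ from one another in repeated and subtelomeric genes, the genes near chromosome ends, which include flocculins, iron and sugar transporters and Ty retrotransposons. They also differ in how they take up nitrogen, sulfur, vitamins and phosphate, and in how fast they ferment. The probes of the array were designed on laboratory yeast sequence. A weaker signal in 1 strain can come from less RNA or from a sequence that differs or is missing there, and these cannot be told apart in these data. The arrays read RNA of whole cultures, so fewer cells that make a transcript and less of it in each cell cannot be told apart either.

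Replicates on the 6 SJ arrays correlated at 0.975 to 0.983 over log2 signals within a strain and at 0.939 to 0.948 between strains. The first principal component held 74.6% of their variance and separated the strains, with EC1118 at 36.9 to 38.0 and M25 at -41.7 to -34.1. The second held 8.59%, and M25 replicate 2 stood farthest along it at 23.4. Background was set as the 25th percentile of an array's yeast signals, a cut by rank and not a measured limit of detection. It was 19.1 to 19.7 on the EC1118 arrays and 17.95 to 20.3 on the M25 arrays. ACT1 signal from the 3' end over that from the 5' end, a sign of RNA integrity, was 1.47 to 1.53 in EC1118 and 1.45 to 1.58 in M25. The same ratio for TBP was 1.28 on EC1118 replicate 2 and 2.26 to 2.49 on the other 5 SJ arrays. The summed signal of 18S ribosomal RNA was 133.8 on M25 replicate 3, against 55.5 to 75.2 on the others. Without EC1118 replicate 2 the strains differed in 1133 probe sets, and without M25 replicate 3 in 1011. The trimmed mean signal lay between 298.6 and 299.9 on the 6 arrays, so each value is relative to the rest of its array. Cell density and residual sugar at harvest were not analysed here.

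The strains differed in 1454 of 7349 probe sets tested, 19.8% of them, with 695 higher and 759 lower in EC1118 (limma, adjusted p under 0.05). Read as genes, with the brightest probe set standing for each, 972 of 5360 changed, which is 18.1%. Of these, 485 genes rose in EC1118 relative to M25 (9.05%) and 487 fell (9.09%). These 2 shares are the measure for every gene list below. The median log2 fold change over all genes was -0.04. The arrays share a trimmed mean, so neither this median nor the balance of rises and falls can show a difference in total RNA. Among the called genes the median size was 0.80 on the log2 scale, 315 passed a log2 fold change of 1 and 65 passed 2. The arrays of the strains did not overlap in 967 of the 972 called genes, against 2210 of all 5360 genes (41.2%). With any 1 SJ array left out, 318 to 388 genes were lower in EC1118, against 487 with all arrays, and 333 to 381 were higher, against 485. The count of lower genes was smallest without M25 replicate 1 and without M25 replicate 2, at 318 and 322.

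**Figure D1:**
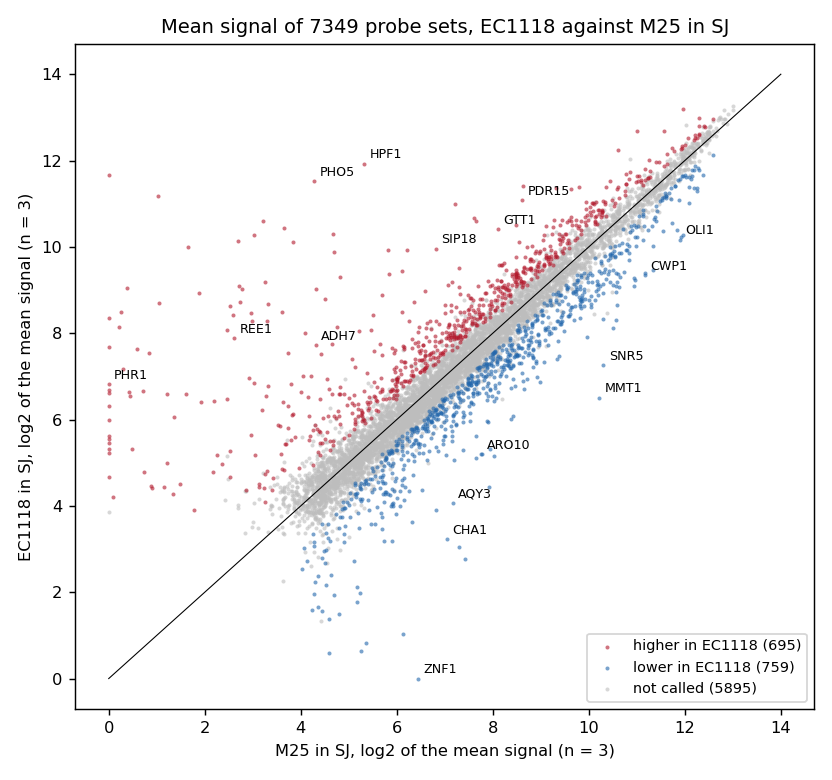
Mean signal of each of 7349 probe sets on the log2 scale, EC1118 in SJ on the vertical axis and M25 in SJ on the horizontal axis, 3 arrays each; the line marks equal signal. The 695 probe sets called higher in EC1118 (red) lie above the line and the 759 called lower (blue) below it, with PHO5 and HPF1 far above and MMT1 and ZNF1 far below.

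The widest gap above background in both strains was that of HPF1, a mannoprotein of the cell wall that keeps white wine from going hazy. Its signals were 4346, 3814 and 3545 in EC1118, against 39.6, 36.8 and 43.1 in M25. The arrays of the strains lay far apart, and the log2 fold change was 6.61 (SE 0.13, adjusted p = 2.53e-11). PHO5, the secreted acid phosphatase that frees phosphate outside the cell, had 2568, 3224 and 3015 in EC1118, against 21.6, 4.3 and 32.6 in M25. Its log2 fold change was 7.66 (SE 0.64, adjusted p = 6.77e-06), although 1 of the 3 M25 arrays lay under the background. PHO84, the high-affinity phosphate transporter of the plasma membrane, fell in EC1118, with 1029, 763 and 1007 against 1973, 1807 and 1731 in M25 (log2 fold change -0.99, SE 0.15, adjusted p = 0.000598). The regulators PHO4 and PHO81 had log2 fold changes of 0.25 and 0.17 (adjusted p = 0.503 and 0.476). GIT1, the transporter that takes up glycerophosphoinositol as a source of phosphate and inositol, had 265, 264 and 279.6 in EC1118, against 50.3, 46.5 and 35.6 in M25. It rose by a log2 fold change of 2.63 (SE 0.14, adjusted p = 1.92e-07), and its arrays did not overlap. Of 26 measured genes of zinc and phosphate supply, 3 rose and 3 fell (11.5% each), close to 9.05% and 9.09% of all genes. Without EC1118 replicate 1, M25 replicate 1 or M25 replicate 3, 1 rose.

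Other large rises came from cell surface, stress and detoxification genes. BSC1, which resembles the flocculin FLO11, had 387, 704 and 884 in EC1118, against 60.3, 63.2 and 47.2 in M25 (log2 fold change 3.46, SE 0.54, adjusted p = 0.000821). PRM7, a pheromone-regulated gene close to BSC1 on the chromosome, had 2208, 3047 and 2894 against 399, 446 and 347 in M25 (log2 fold change 2.77, adjusted p = 1.44e-06). SIP18, a hydrophilin that protects cells against drying, had 803, 1098 and 1089 in EC1118, against 121, 123 and 94.9 in M25. The SIP18 arrays stood well apart, with a log2 fold change of 3.14 (SE 0.46, adjusted p = 0.000536). PDR15, a drug efflux pump of the ABC family, had 2348, 1788 and 2344 in EC1118, against 363, 414 and 397 in M25. Its log2 fold change was 2.46 (SE 0.21, adjusted p = 7.03e-06), and PDR1, the transcription factor that drives the pleiotropic drug response, rose by 0.84 (adjusted p = 0.00196). GTT1, a glutathione transferase, had 1341, 1266 and 1490.2 in EC1118, against 267, 322 and 242 in M25 (log2 fold change 2.31, SE 0.21, adjusted p = 1.61e-05). MGA1, YFL051C, DFP1 and VHS2 completed the group of largest rises, with log2 fold changes of 2.79, 3.03, 2.39 and 2.38.

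The gene that fell most while staying above background in both strains was MMT1, which codes for a metal transporter of the mitochondrion. Its signals were 92.0, 98.5 and 82.2 in EC1118, against 1199, 1208 and 1169 in M25. The log2 fold change was -3.72 (SE 0.16, adjusted p = 2.56e-08), and the 3 M25 arrays were close to each other. MMT2, the related transporter, had 172, 149.9 and 155 in EC1118, against 145, 192 and 115 in M25, and these ranges overlapped (log2 fold change 0.11, adjusted p = 0.793). AQY3, a water and glycerol channel of the aquaporin family, had 19.5, 22.3 and 8.7 in EC1118, against 156, 131 and 144 in M25 (log2 fold change -3.20, SE 0.39, adjusted p = 0.000135), and 1 of the 3 EC1118 arrays was under the background. DTR1, a transporter known from the making of the spore wall, had 6.7, 25.5 and 12.4 in EC1118, against 107, 109.5 and 123 in M25 (log2 fold change -3.14, adjusted p = 0.000171). Here 2 of the 3 EC1118 arrays were under the background, and with signals raised to the background DTR1 had -2.42. HSP30, a stress protein of the plasma membrane, fell too, with 36.7, 32.4 and 33.9 against 198, 223 and 181 in M25 (log2 fold change -2.54, SE 0.17, adjusted p = 1.26e-06). OPT2, an oligopeptide transporter, depended on the arrays used. Its signals were 261, 214 and 363 in EC1118, against 1975, 395 and 1988 in M25, so M25 replicate 2 lay close to EC1118 (log2 fold change -2.09, SE 0.64, adjusted p = 0.0375). The call was lost without any 1 of EC1118 replicates 1, 2 and 3 (adjusted p = 0.0948, 0.113 and 0.0604) and without M25 replicate 1 or 3 (adjusted p = 0.131 and 0.143).

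**Figure D2:**
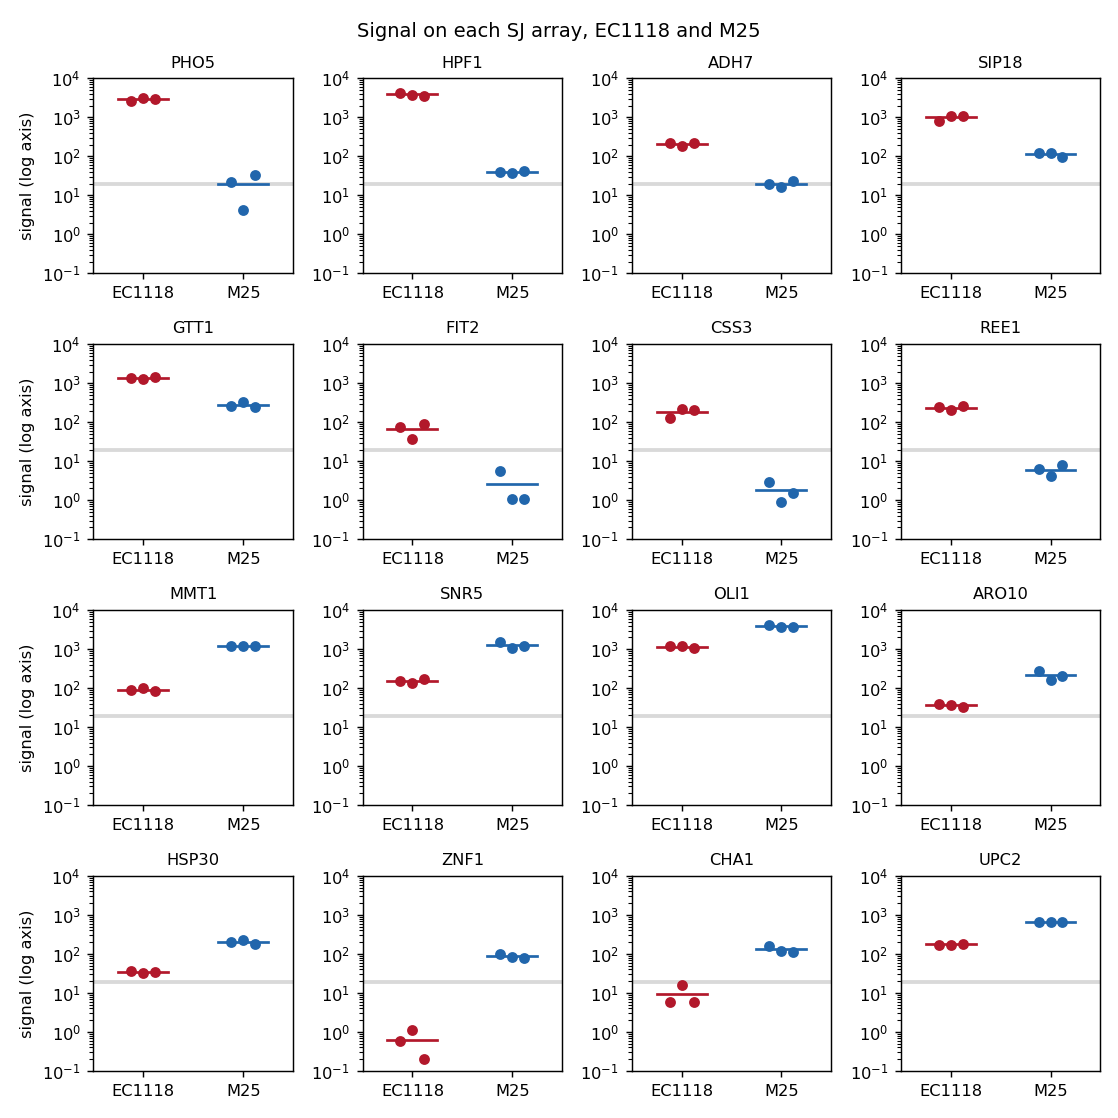
Signal on each SJ array (points, log axis) and the mean of 3 arrays (bar) for 16 genes named in the text, EC1118 on the left and M25 on the right; the grey band is the range of background over the 6 SJ arrays. FIT2, CSS3 and REE1 lie under the band in M25, ZNF1 and CHA1 lie under it in EC1118, and the strains do not overlap in any of the 16 genes.

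Some genes had signal in 1 strain and stayed under the background on every array of the other. For 18 genes called higher, all 3 M25 arrays lay under the background while all 3 EC1118 arrays lay over it, and 15 of these were under it in M25 in FSJ too. REE1, a gene linked to the control of enolase, had 244, 201 and 264 in EC1118, against 6.2, 4.2 and 7.9 in M25, at least 12.1-fold higher in EC1118 (adjusted p = 5.18e-07). CSS3 had 128, 221 and 207 against 3.0, 0.9 and 1.5 in M25, at least 9.27-fold higher. PHR1, the DNA photolyase that repairs damage from ultraviolet light, had 118, 111 and 109 against 0.5, 0.2 and 0.3 in M25, at least 5.78-fold higher (adjusted p = 2.56e-08). A bound of this kind sets the mean of the strain with signal against the background of the other. It rests on the percentile chosen as background. The adjusted p beside it comes from the fit to the signals themselves, with those under 1 raised to 1. All 3 M25 signals of PHR1 were raised in this way and so added no spread. A gene under the background in 1 strain in both media passed the filter through the other strain alone. Its adjusted p is therefore no separate support for the difference. RDS1, a zinc-cluster transcription factor, was at least 6.35-fold higher, YMR317W at least 5.87-fold and YOR385W at least 5.58-fold. In the other direction, 21 genes had signal on all M25 arrays and none over background in EC1118, and 11 of them were under it in EC1118 in FSJ too. CHA1, the deaminase that breaks down serine and threonine, had 6.0, 16.3 and 5.7 in EC1118, against 158, 121 and 115.5 in M25, at least 6.70-fold lower in EC1118 (adjusted p = 0.000119). ZNF1, a zinc-cluster regulator of growth on carbon sources other than glucose, had 0.6, 1.1 and 0.2 against 97.2, 83.8 and 80.9 in M25, at least 4.48-fold lower (adjusted p = 1.94e-06). AMF1, which resembles ammonium transporters, was at least 2.75-fold lower.

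The highest bounds belonged to probe sets of Ty1, the most abundant retrotransposon of laboratory yeast, which moves by copying its RNA into DNA. The array has 73 kept probe sets that list Ty1 reading frames, and they read many near-identical copies. On 17 of them all M25 arrays in SJ lay under the background and all EC1118 arrays over it, and on 15 of these M25 was under it in FSJ as well. The EC1118 means on the 17 ran between 37.5 and 3239, and the bounds between 1.90-fold and 164-fold higher. YBL005W-B, a single Ty1 reading frame by its annotation, had 466, 801 and 479 in EC1118, against 6.9, 11.7 and 9.9 in M25, at least 29.0-fold higher (adjusted p = 1.14e-05). YHR214C-B was at least 21.6-fold higher and YMR045C at least 14.9-fold. YDR034C-A was at least 27.9-fold higher on its brightest probe set, but its 4 probe sets disagreed, with log2 fold changes of -1.67 to 6.93. On the other 56 Ty1 probe sets, 8 were higher and 17 lower in EC1118, with a median log2 fold change of -0.33. Over all 73, then, 25 were called higher and 17 lower, against 9.46% and 10.3% of all probe sets. The Ty1 list was drawn up after values had been seen. Of 22 probe sets that list YRF1 helicases, repeats next to telomeres, 7 were higher and 2 lower, and 4 were under the background in M25 alone.

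Many of the large differences lay near chromosome ends. Among the outermost 15 measured genes of each end, 28 of 480 were called with a log2 fold change past 2 in either direction (5.83%), against 37 of 4872 genes further in (0.759%). On the left end of chromosome XV, CSS3, ENB1 and HPF1, neighbours among the genes measured, were all higher in EC1118. ENB1, the transporter of the iron carrier enterobactin, had 105, 64.6 and 70.0 in EC1118, against 11.8, 11 and 17.0 in M25, at least 4.01-fold higher. On the right end of the same chromosome lay the longest run of all, FRE3, FIT2, FIT3, YOR385W and PHR1, again all higher in EC1118. On the left end of chromosome VI the directions were mixed, with YFL051C higher and ZNF1, AQY3 and AGP3 lower in EC1118. AGP3 was under the background on every EC1118 array, and with signals raised to the background it was not called (adjusted p = 0.148). YFL051C, a flocculin-like gene, had 107, 182 and 261 in EC1118, against 20.3, 17.5 and 26.5 in M25 (log2 fold change 3.03, adjusted p = 3.57e-05), and 1 of the 3 M25 arrays was under the background. On the right end of chromosome III, GIT1, YCR099C and EMA35 were higher, as were ADH7 and RDS1 farther out. YCR099C was over the background on 1 array alone, in EC1118, and was not called with signals raised to it (adjusted p = 0.483). EMA35 was not called without EC1118 replicate 1 or 3 or M25 replicate 1 or 3 (adjusted p = 0.0636 to 0.0852). ADH7, an alcohol dehydrogenase that uses NADPH, had 226, 189.5 and 215 in EC1118, against 19.5, 16.2 and 23.9 in M25 (log2 fold change 3.42, SE 0.32, adjusted p = 1.60e-05), and 2 of the 3 M25 arrays were under the background. On chromosome X, REE1 lay beside YJL218W, named here after its values were seen, which was at least 3.81-fold higher. In all, 17 runs of 3 or more neighbours called the same way, at chromosome ends and elsewhere, held 56 genes. The run of OLI1, COX2 and Q0255 lies on the mitochondrial genome. Among all genes 9.05% were higher and 9.09% lower, and how many runs such shares give without any tie to position was not tested. Some run members, such as RPS25A and TIF4632, lost their call under several alternatives. Over whole nuclear chromosomes the median log2 fold changes ran from -0.13 on chromosome XVI to 0.06 on chromosome V.

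Of 28 measured genes of iron uptake, 4 rose (14.3%) and 6 fell (21.4%), against 9.05% and 9.09% of all genes. The 4 that rose, FIT2, FIT3, ENB1 and FRE3, all stand in the runs at the ends of chromosome XV. FIT2 and FIT3 code for wall mannoproteins that hold siderophores, the iron carriers of microbes, near the cell. FIT3 had 517, 425 and 573 in EC1118, against 90.1, 82.4 and 116 in M25 (log2 fold change 2.40, SE 0.20, adjusted p = 6.37e-06). FIT2 had 76.8, 36.4 and 88.3 against 5.5, 1.1 and 1.1 in M25, at least 3.22-fold higher, and FRE3, a reductase for siderophore iron, was at least 1.39-fold higher. FRE3 lost its call once signals below background were set to it (adjusted p = 0.256). The 6 that fell lie on other chromosomes, and the following were named after their values were seen. FRE2, a ferric reductase, had 51.6, 34.5 and 29.2 in EC1118, against 103, 131 and 114 in M25 (log2 fold change -1.63, adjusted p = 0.00267). SIT1, a transporter of ferrioxamine, had a log2 fold change of -1.39 (adjusted p = 0.00336), and FET3, the copper oxidase of high-affinity iron uptake, one of -1.07 (adjusted p = 0.0128), which was not called without EC1118 replicate 3 or M25 replicate 2 (adjusted p = 0.0548 and 0.0505). The transporters ARN1 and ARN2 had log2 fold changes of 0.41 and -0.05 (adjusted p = 0.0840 and 0.898). CCC2, the copper pump that loads FET3, went the other way and rose by 2.00 (SE 0.22, adjusted p = 5.89e-05).

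The proteins of the mitochondrial ribosome, which makes the few proteins the mitochondrial genome codes for, formed the most one-sided list. Of 67 measured genes 43 rose in EC1118 and none fell, against 9.05% and 9.09% of all genes, and 66 of 67 fitted values were above 0. The median log2 fold change of the list was 0.66, against -0.04 for all genes. MRPL31 had 308, 328 and 298 in EC1118, against 135, 86.3 and 88.3 in M25 (log2 fold change 1.62, SE 0.19, adjusted p = 0.000113). MRPS8 had 200.1, 205 and 217 against 70.4, 73.0 and 66.1 in M25, and MRPL11 had 272, 272 and 278 against 123, 83.0 and 110 in M25. Their log2 fold changes were 1.57 and 1.40. MAM33, which takes part in mitochondrial translation, had 1355, 1543 and 1376 in EC1118, against 575, 537 and 542 in M25 (log2 fold change 1.37, SE 0.11, adjusted p = 6.38e-06). Chaperones of the mitochondrial matrix were higher as well, SSC1 by a log2 fold change of 1.16 (adjusted p = 0.000171) and HSP60 by 0.65 (adjusted p = 0.000609). Of 37 measured genes of the respiratory complexes and the ATP synthase, which hold the products of that ribosome, 1 rose, STF1, and the median was -0.04. STF1 was not called without any 1 of the EC1118 arrays or without M25 replicate 2 or 3 (adjusted p = 0.0563 to 0.106).

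Of the 8 measured genes carried by the mitochondrial genome itself 3 fell in EC1118 and none rose, against 9.09% and 9.05% of all genes. The median log2 fold change was -0.73. Without M25 replicate 3, 1 fell, and the median ran from -1.11 to -0.10 over the alternatives. In FSJ 1 of the 8 was lower, none was higher, and the median was 0.64. The labelling and priming of the RNA bear on mitochondrial transcripts too and were not settled here. OLI1, subunit 9 of the ATP synthase, had 1186, 1188 and 1081 in EC1118, against 4108, 3658 and 3722 in M25. The strains were far apart, with a log2 fold change of -1.73 (SE 0.10, adjusted p = 4.09e-07). COX2, a subunit of cytochrome oxidase, had 10.4, 12.3 and 5.8 in EC1118, all under the background, against 18.9, 21.0 and 31.5 in M25 (adjusted p = 0.0130, 0.0673 without M25 replicate 3, and 0.285 with signals raised to the background). For COX2, 1 of the 3 M25 arrays was under the background too. Q0255, the remaining gene that fell, was under it on every EC1118 array. Its call was lost under 5 alternatives, the 6 SJ arrays alone among them (adjusted p = 0.0518). COB, ATP6 and COX3 were scattered within each strain, for example 83.9, 99.6 and 19.6 in EC1118 against 98.6, 41.6 and 109 in M25 for ATP6, and none was called (adjusted p = 0.146, 0.682 and 0.904).

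The proteasome, the protease that degrades proteins marked by ubiquitin, was represented by a list that leaned the same way as the mitochondrial ribosome. Of 34 measured genes, its subunits and the regulator RPN4, 18 rose in EC1118 and none fell, with a median log2 fold change of 0.44. PUP1, a catalytic subunit, had 1331, 1511 and 1558 in EC1118, against 908, 642 and 870.2 in M25 (log2 fold change 0.88, SE 0.16, adjusted p = 0.00223). RPT1, an ATPase of the regulatory particle, had 1382, 1575 and 1418 against 852, 795 and 917 in M25 (log2 fold change 0.77, SE 0.13, adjusted p = 0.00135). PRE1 and RPT6 rose by 0.58 and 0.59. RPN4, the transcription factor that drives these genes, had 564, 545 and 559 in EC1118, against 747, 822 and 607 in M25, with a log2 fold change of -0.37 that missed the threshold (adjusted p = 0.182). It was named after its values were seen. The count called higher was 10 without EC1118 replicate 2 and 11 without EC1118 replicate 3.

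Few genes of cytosolic protein synthesis were called. Of 49 measured cytosolic ribosomal proteins 1 rose, RPS25A, and their median log2 fold change was 0.01. RPS25A was not called without EC1118 replicate 2 or 3 or any 1 of the M25 arrays (adjusted p = 0.0806 to 0.157). Of 73 measured genes of ribosome biogenesis 3 rose, NOP58, UTP20 and RPA190, with a median of 0.04. NOP58, a core protein of small nucleolar particles, had 2239, 2927 and 2831 in EC1118, against 1172, 1416 and 1341 in M25 (log2 fold change 1.02, adjusted p = 0.000160), but its 4 probe sets ran from -0.16 to 1.02, and the mean of the probe sets was not called (adjusted p = 0.401). The count of 3 was 1 without EC1118 replicate 3, M25 replicate 1 or M25 replicate 3, and 6 without EC1118 replicate 1.

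Probe sets of small RNAs leaned lower in EC1118. How the RNA was labelled and primed bears on such signals and was not settled here. Of 86 measured transfer RNA genes 36 fell and 1 rose, against 9.09% and 9.05% of all genes, with a median log2 fold change of -0.53. The probe sets named in this group read several copies of a transfer RNA, so each name stands for a family. YNCM0020W had 18.7, 26.0 and 20.0 in EC1118, against 225, 286.5 and 217 in M25 (log2 fold change -3.50, SE 0.27, adjusted p = 3.82e-06), and 1 of the 3 EC1118 arrays was under the background. YNCE0013W had 34.5, 35.8 and 36.0 against 246, 292.5 and 241 in M25 (log2 fold change -2.87, SE 0.16, adjusted p = 1.92e-07). YNCK0012C and YNCJ0011W, further transfer RNA genes, had log2 fold changes of -2.49 and -2.08, and 2 of the 3 EC1118 arrays were under the background for YNCJ0011W. Of 45 measured small nucleolar RNA genes, which guide the modification of ribosomal RNA, 6 fell and none rose, with a median of -0.39. SNR5 had 151, 136 and 172 in EC1118, against 1529, 1078 and 1191 in M25 (log2 fold change -3.04, SE 0.24, adjusted p = 4.72e-06). SNR31 was under the background in EC1118 and at least 3.01-fold lower. Without EC1118 replicate 1, and without M25 replicate 2, 3 small nucleolar RNA genes were called lower. The count ran from 3 to 8 with 1 SJ array left out.

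**Figure D3:**
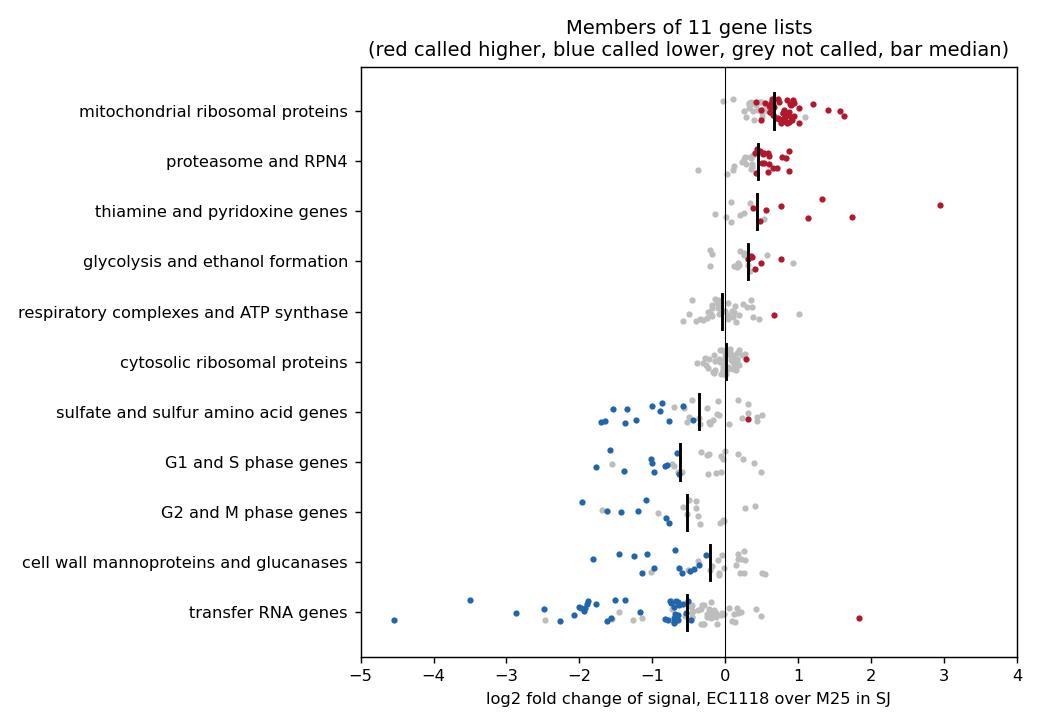
Log2 fold change, EC1118 over M25 in SJ, of every measured member of 11 gene lists (points; red called higher, blue called lower, grey not called) with the list median (black bar). Mitochondrial ribosomal proteins and the proteasome lie right of 0, with medians of 0.66 and 0.44, cytosolic ribosomal proteins lie around 0.01, and the cell cycle, sulfur and transfer RNA lists lie left of 0.

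Sulfur genes leaned lower in EC1118. Yeast reduces sulfate to sulfide in a chain of MET enzymes and builds methionine and cysteine from it. Of 35 measured genes 12 fell (34.3%) and 1 rose, SAH1, against 9.09% and 9.05% of all genes. The median log2 fold change was -0.36. None rose without M25 replicate 1. SUL1, a sulfate permease, had 19.5, 14.7 and 17.2 in EC1118, against 57.6, 51.4 and 51.8 in M25 (log2 fold change -1.65, SE 0.17, adjusted p = 4.29e-05), and 2 of the 3 EC1118 arrays were under the background. MET32, a transcription factor of the pathway, had 31.1, 21.9 and 21.8 against 74.4, 51.3 and 64 in M25 (log2 fold change -1.35, adjusted p = 0.000871). STR3, which turns cystathionine into homocysteine, had 648, 351 and 401 against 1106, 1032 and 1027 in M25 (log2 fold change -1.23, adjusted p = 0.000802). JLP1, which frees sulfur from sulfonates and was under the background on 2 of the 3 EC1118 arrays, had a log2 fold change of -1.71, and MET16, the reductase that makes sulfite and named after its values were seen, one of -1.37 (adjusted p = 0.00394 and 0.00942). The number of genes called lower was 7 without EC1118 replicate 2 and 7 without EC1118 replicate 3. The sulfite pump SSU1, which protects wine yeast from sulfite, went the other way. It had 2083, 2104 and 2055 in EC1118, against 1112, 1005 and 1079 in M25 (log2 fold change 0.97, SE 0.13, adjusted p = 0.000337), and its regulator FZF1 rose by 0.60 (adjusted p = 0.0229). FZF1 was not called without EC1118 replicate 2 or 3 or M25 replicate 2 or 3 (adjusted p = 0.0545 to 0.0873).

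Of 61 measured genes of amino acid synthesis 17 fell (27.9%) and 6 rose (9.84%), against 9.09% and 9.05% of all genes. The median log2 fold change was -0.08. Arginine synthesis was represented by ARG3, the ornithine carbamoyltransferase, with 364.5, 325.5 and 275 in EC1118, against 1241, 1374 and 1161 in M25 (log2 fold change -1.97, SE 0.36, adjusted p = 0.00235). Also called lower were ARG1, ARG2, ARG4, ARG7, ARG8 and CPA1 of the same pathway, with log2 fold changes of -1.75 to -0.34. They were named after their values were seen, and no arginine gene was among the 6 that rose. The tryptophan genes TRP3 and TRP4 fell by 1.08 and 1.16 on the log2 scale (with adjusted p = 0.00208 and 0.00228). TRP1, TRP2 and TRP5, of the same pathway, were not called, with log2 fold changes of 0.08, 0.17 and 0.10. SER3, which opens the serine pathway, rose, with 749.8, 844 and 693.5 in EC1118, against 250.1, 320.1 and 310.5 in M25 (log2 fold change 1.38, SE 0.18, adjusted p = 0.000212). The other genes that rose were LEU1, LEU2 and BAT1 of leucine synthesis and LYS9 and LYS12 of lysine synthesis, with log2 fold changes of 0.46 to 0.77. These rises and the uncalled TRP genes were named after their values were seen. The number lower was 17 with all arrays, 10 without EC1118 replicate 2 or without M25 replicate 1, and 11 without M25 replicate 2 or 3. The Ehrlich pathway turns aromatic amino acids into fusel alcohols, among them the rose-scented phenylethanol. Its aminotransferase ARO9 had 47.5, 33.7 and 39.3 in EC1118, against 359, 166 and 213 in M25 (log2 fold change -2.55, SE 0.48, adjusted p = 0.00281). Its decarboxylase ARO10 had 40.1, 37.0 and 33.4 against 280.3, 165 and 202 in M25 (log2 fold change -2.52, SE 0.24, adjusted p = 2.06e-05). ATF1, which makes acetate esters of such alcohols, had 774, 926 and 773 in EC1118, against 805, 877 and 854 in M25, and the ranges overlapped (log2 fold change -0.04, adjusted p = 0.921).

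Genes for poor nitrogen sources, which yeast shuts off while a good source lasts, were mixed. Of 33 measured, 7 rose and 3 fell, the median log2 fold change was 0.04, and 4 rose without any 1 of EC1118 replicate 1, M25 replicate 1 or M25 replicate 2. The 3 that fell are the same share as over all genes, 9.09%, and 1 fell without EC1118 replicate 2 or M25 replicate 1. GAP1, the general amino acid permease, had 1853, 1367 and 1725 in EC1118, against 926, 809 and 655 in M25 (log2 fold change 1.05, SE 0.17, adjusted p = 0.000823). DUR3, the urea permease, rose by 1.15 and UGA1, the transaminase of GABA use, by 0.87 (adjusted p = 0.00295 and 0.00109). DAL5, the allantoate permease, fell, with 279.7, 233 and 291 against 531.5, 554 and 547 in M25 (log2 fold change -1.03, adjusted p = 0.00164). A second DAL5 probe set had -0.57 in SJ and 0.92 in FSJ (adjusted p = 0.0272 and 0.00102). The difference between the media was called on that probe set (adjusted p = 0.0376 in limma's interaction test). MEP2, the high-affinity ammonium permease, had overlapping ranges, 2454, 1990.1 and 2154 in EC1118 and 2093, 2430.3 and 2262 in M25 (log2 fold change -0.04, adjusted p = 0.831). DIP5, the permease for acidic amino acids, rose by 1.10 (adjusted p = 0.00459), and GNP1, a glutamine permease, fell by 1.20 on the log2 scale (at an adjusted p = 0.00982).

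Vitamin genes leaned higher. Thiamine is the cofactor of pyruvate decarboxylase, so a fermenting cell draws on it heavily. Of 16 measured genes of thiamine and pyridoxine 8 rose and none fell, against 9.05% and 9.09% of all genes. The median log2 fold change was 0.43, and 5 rose without EC1118 replicate 2 or without EC1118 replicate 3. PET18, a gene of the thiamine regulon, had 1426, 1694 and 1509 in EC1118, against 211, 206 and 185 in M25 (log2 fold change 2.94, SE 0.28, adjusted p = 1.92e-05). THI22 had 1213, 2006 and 1504 against 525, 688 and 646 in M25 (log2 fold change 1.32, adjusted p = 0.000578). SNZ1, of pyridoxine synthesis, rose by 0.77 and THI20, a kinase of thiamine synthesis, by 0.56. Of 18 measured genes of biotin and NAD 5 rose and 3 fell. Among them BIO5, the uptake permease of a biotin precursor, rose by 0.53 and BIO4, the dethiobiotin synthetase, fell by 0.52 on the log2 scale.

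Genes of the cell division cycle leaned lower in EC1118. Of 28 measured genes of the G1 and S phases 10 fell and none rose, with a median log2 fold change of -0.62, against 9.09% of all genes falling. Of 21 measured genes of the G2 and M phases 7 fell and none rose, with a median of -0.53. PCL1, a G1 cyclin, had 17.2, 28.3 and 19.5 in EC1118, against 75.6, 71.6 and 69.8 in M25 (log2 fold change -1.77, SE 0.39, adjusted p = 0.00728), and 1 of the 3 EC1118 arrays was over the background. CLB5, the S-phase cyclin, had 219, 229 and 227 against 402, 418 and 374 in M25 (log2 fold change -0.82, adjusted p = 0.000745). RFA2, a subunit of the protein that coats single-stranded DNA in replication, fell by 1.02 and the repressor YOX1 by 1.58 on the log2 scale. The mitotic cyclin CLB1 was under the background on every EC1118 array and at least 2.66-fold lower. Separation of daughter cells uses enzymes that cut the septum. DSE2 had 155, 165.5 and 193 in EC1118, against 482, 470.4 and 425 in M25 (log2 fold change -1.43, SE 0.22, adjusted p = 0.000702). The chitinase CTS1 fell by 1.20 and the glucanase SCW11 by 1.09 on the log2 scale, and DSE1 was at least 2.47-fold lower. Among 5 measured histone genes HTB2 fell (log2 fold change -1.06, adjusted p = 0.00298).

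Cell wall genes leaned lower too. Of 33 measured mannoproteins and glucanases 13 fell (39.4%) and none rose, against 9.09% and 9.05% of all genes. The median log2 fold change was -0.21. CWP1, a wall mannoprotein, had 615, 665 and 668 in EC1118, against 2345, 2299.7 and 2227 in M25 (log2 fold change -1.82, SE 0.14, adjusted p = 3.76e-06). PIR1, a wall protein bound to glucan, had 402, 315 and 444 against 1097, 1066 and 987 in M25 (log2 fold change -1.45, SE 0.18, adjusted p = 0.000151). CRH1, which links chitin to glucan, and SCW10, a glucanase-like wall protein, fell by 1.14 and 1.07 on the log2 scale. This count depended on the arrays, with 6 to 9 genes lower when any 1 SJ array was left out, 6 without EC1118 replicate 1 or without M25 replicate 2, 7 without EC1118 replicate 3, and 8 without EC1118 replicate 2 or without M25 replicate 3. Flocculins and other adhesins leaned the opposite way, with 6 of 13 measured genes higher and 1 lower, and none lower without EC1118 replicate 2 or 3 or M25 replicate 2 or 3. Apart from HPF1, BSC1 and PRM7, these were FLO5, YHR213W and FLO8. YHR213W was under the background on every M25 array and was not called with signals raised to it (adjusted p = 0.0530). FLO5 had 39.3, 53.0 and 74.7 in EC1118, against 6.2, 13.0 and 20.8 in M25 (log2 fold change 2.18, SE 0.66, adjusted p = 0.0361), on a probe set that reads related genes. For FLO5, 2 of the 3 M25 arrays were under the background, and the value was 1.46 with signals raised to it. It was not called when any 1 SJ array other than M25 replicate 3 was left out (adjusted p = 0.0569 to 0.130). FLO11, the flocculin of biofilms and flor, had 145, 137 and 185.5 in EC1118, against 202, 199.7 and 123 in M25, and the ranges overlapped (log2 fold change -0.15, adjusted p = 0.762).

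**Figure D4:**
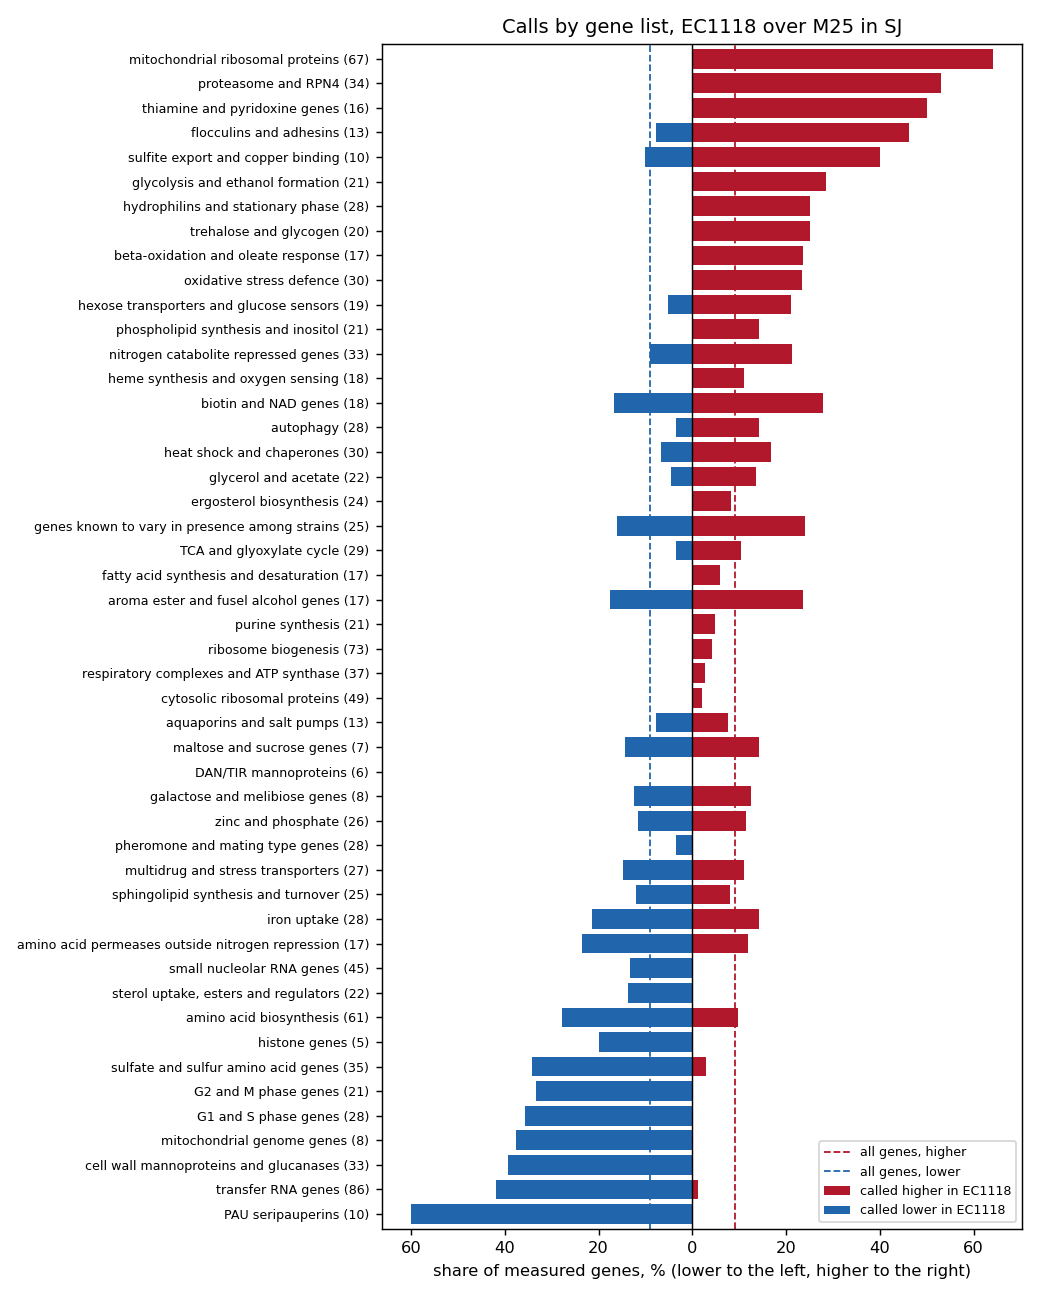
Share of measured genes called higher (red, right) and lower (blue, left) in EC1118 against M25 in SJ for each list with 5 or more measured genes, the number measured in brackets; dashed lines mark the shares over all 5360 genes, 9.05% higher and 9.09% lower. Mitochondrial ribosomal proteins and the proteasome stand at the top, and seripauperins, transfer RNA genes and cell wall genes at the bottom.

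Some genes of carbon metabolism rose. Of 21 measured genes of glycolysis and ethanol formation 6 rose and none fell, against 9.05% and 9.09% of all genes. Their median log2 fold change was 0.31, and it was 0.13 under quantile normalization. PDC5, a pyruvate decarboxylase, had 4203, 4348 and 3917 in EC1118, against 2287, 2595 and 2461 in M25 (log2 fold change 0.76, SE 0.13, adjusted p = 0.00189). PDC1, the main pyruvate decarboxylase, and ADH1, the main alcohol dehydrogenase, had log2 fold changes of 0.12 and 0.25 (adjusted p = 0.313 and 0.227). Both subunits of phosphofructokinase rose, PFK1 by 0.37 and PFK2 by 0.49. HXT3, a low-affinity glucose transporter, had 7608, 7154 and 6531 in EC1118, against 5226, 4828 and 5054 in M25 (log2 fold change 0.49, SE 0.07, adjusted p = 0.000639), and HXT1 had a log2 fold change of -0.08 (adjusted p = 0.617). HXK1, a hexokinase, rose by 1.08 (adjusted p = 0.00122). GPD1, the first enzyme of glycerol formation, had 3349, 2816 and 3182 against 2746, 1757 and 2665 in M25, and missed the threshold (log2 fold change 0.41, adjusted p = 0.430).

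Reserve and stress genes leaned higher as well. Of 20 measured genes of trehalose and glycogen 5 rose and none fell, against 9.05% and 9.09% of all genes. Without EC1118 replicate 1 or without M25 replicate 1, 3 were higher. GPH1, the glycogen phosphorylase, had 2605, 2812 and 2419.9 in EC1118, against 775, 846 and 751 in M25 (log2 fold change 1.72, SE 0.26, adjusted p = 0.000598), and GSY1, a glycogen synthase, rose by 1.46 (adjusted p = 0.00112). Of 30 measured genes of oxidative stress defence 7 rose and none fell, and 4 were higher without M25 replicate 2 or without M25 replicate 3. CCP1, the cytochrome c peroxidase, had 1237, 970.2 and 919 against 426, 446 and 472 in M25 (log2 fold change 1.21, SE 0.15, adjusted p = 0.000151). Of 28 measured hydrophilins and stationary-phase genes 7 rose and none fell. DDR48, a stress protein of this list, had 7167, 6439 and 6202 against 2157, 2060.1 and 1950 in M25 (log2 fold change 1.68, SE 0.10, adjusted p = 4.08e-07), with a second probe set at 0.46. HSP12, a small membrane-bound stress protein, had 339.8, 141 and 183 in EC1118, against 218, 251 and 219 in M25, with overlapping ranges (log2 fold change -0.15, adjusted p = 0.898). Among 30 heat shock genes and chaperones 5 rose (16.7%) and 2 fell (6.67%). Of the heat shock genes 3 rose without EC1118 replicate 2, M25 replicate 2 or M25 replicate 3, and 1 fell without EC1118 replicate 1 or 3 or M25 replicate 2 or 3.

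Of 24 measured genes of ergosterol synthesis 2 rose, HMG1 and ERG20, and none fell, against 9.05% and 9.09% of all genes, with a median log2 fold change of 0.16. Of 21 measured genes of phospholipid synthesis and inositol 3 rose and none fell. Of 25 measured genes of sphingolipids 2 rose and 3 fell, and none rose without EC1118 replicate 1 or M25 replicate 3. ERG11, the sterol demethylase, had 4359, 4125 and 4227 in EC1118, against 4202, 3855 and 3764 in M25 (log2 fold change 0.11, adjusted p = 0.544). OLE1, the fatty acid desaturase, had 4777, 4857 and 4083 against 3596, 3993 and 4313 in M25, and these ranges overlapped (log2 fold change 0.20, adjusted p = 0.168). Neither call of the ergosterol list held without EC1118 replicate 2 or without M25 replicate 2. Of 22 genes of sterol uptake, esters and regulation 3 fell and none rose, and 5 fell without EC1118 replicate 1. UPC2, the regulator that senses sterol shortage and switches on sterol uptake, had 173, 175 and 183 in EC1118, against 648, 663 and 674 in M25. The UPC2 arrays were tight within each strain, with a log2 fold change of -1.90 (SE 0.18, adjusted p = 1.70e-05). PRY2, a secreted sterol-binding protein, had 153, 175.5 and 180.1 against 641, 712 and 598 in M25 (log2 fold change -1.94, SE 0.23, adjusted p = 0.000110), and SUT1, a regulator of sterol uptake, fell by 1.62 on the log2 scale (at an adjusted p = 0.000655). The seripauperins, small wall proteins made under fermentation and low oxygen, had 6 of 10 measured genes lower and none higher, with a median of -0.47. PAU16 had 1078, 1317 and 1061 in EC1118, against 2107, 2457 and 2123 in M25 (log2 fold change -0.96, SE 0.16, adjusted p = 0.00138). PAU13, PAU19 and PAU4 fell by 0.71, 0.72 and 0.46 on the log2 scale, each on a probe set that reads other copies too. None of 6 measured DAN and TIR mannoproteins, wall proteins made without oxygen, was called, and TIR2, the nearest to a call, had a log2 fold change of 0.29 (adjusted p = 0.0854). Of 17 genes of beta-oxidation 4 rose (2 without EC1118 replicate 1 or M25 replicate 3), among them FAA2, which activates medium-chain fatty acids, by 1.32 (adjusted p = 0.000149).

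The strain difference was then read in the other 6 cultures, in FSJ. These are other arrays, but all 12 entered a single fit and share its estimate of the spread. There 1866 genes were called (34.8%), 1309 higher (24.4%) and 557 lower (10.4%) in EC1118. The median signal was 85.8 to 88.5 on the EC1118 arrays in FSJ and 73.6 to 75.0 on the M25 arrays in FSJ. Whether this bears on the number of rises was not tested. The 3' to 5' ratio of TBP was 5.64 on M25 in FSJ replicate 2. Of the 972 genes called in SJ, 721 were called in FSJ with the same sign, which is 74.2% of the SJ calls and 38.6% of the FSJ calls, and 3 were called with the opposite sign. Over probe sets, FSJ gave 2579 calls (35.1%), of which 22.7% of all probe sets were higher and 12.4% lower in EC1118, and 1114 were called in both media with the same sign and 6 with opposite signs. HPF1 averaged 4449 in EC1118 and 50.2 in M25 in FSJ, with a log2 fold change of 6.47. PHO5 had a log2 fold change of 6.15 there, REE1 4.54, PDR15 2.61, GTT1 2.28, HSP30 -2.54 and OLI1 -1.74. The mitochondrial ribosomal proteins had a median of 0.85 in FSJ with 55 of 67 higher and none lower, and the proteasome list a median of 0.80 with 28 of 34 higher and 1 lower. The median over all genes in FSJ was 0.17. The sulfur list had a median of -0.83 in FSJ, with 23 of 35 lower and 2 higher. The seripauperins had a median of 0.09 in FSJ with 1 of 10 higher and 4 lower, and the difference between the media was not called for any of them.

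**Figure D5:**
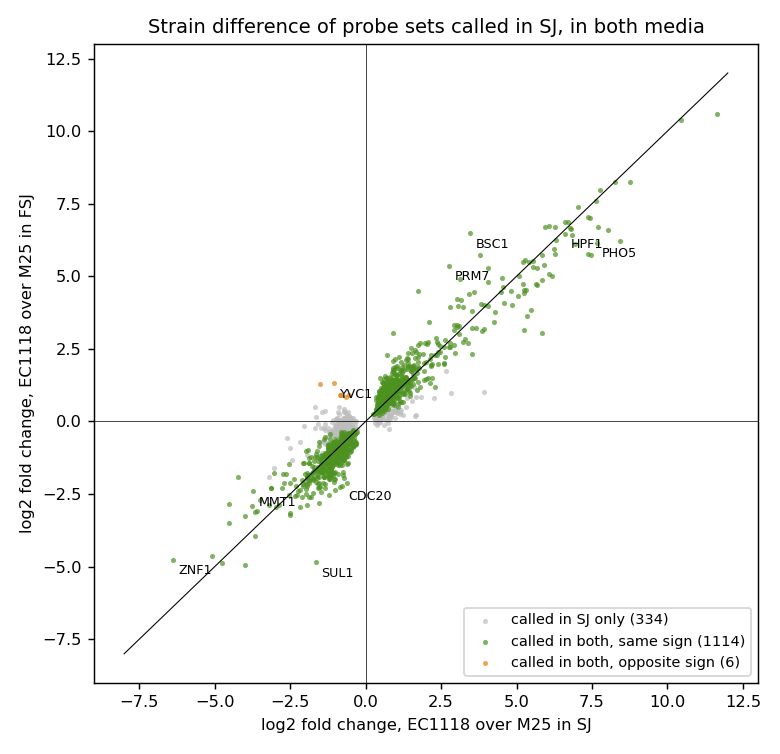
Log2 fold change, EC1118 over M25, of the 1454 probe sets called in SJ, in SJ (horizontal) and in FSJ (vertical), 3 arrays per strain and medium; the line marks equal change. Of these, 1114 were called with the same sign in FSJ (green), 6 with the opposite sign (orange) and 334 in SJ alone (grey), and SUL1 and PRM7 lie off the line.

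A test of the difference between the media, the interaction of strain and medium, called 15 of 7349 probe sets, with 1135 at an unadjusted p under 0.05. Read as genes it called 10 (0.187%). SUL1 was the clearest, with a log2 fold change of -1.65 in SJ and -4.84 in FSJ, where it averaged 23.7 in EC1118 and 675 in M25 (adjusted p = 0.000173 for the difference). PRM7 had 2.77 in SJ and 5.35 in FSJ (adjusted p = 0.00216), and its second probe set was called too. VBA2, a neighbour of SUL1 that codes for a vacuolar transporter of basic amino acids, had -0.62 in SJ and -2.13 in FSJ (adjusted p = 0.0145).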

How the data were processed

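Each of the 12 one-colour Affymetrix arrays holds 1 culture, per the labels. The authors deposited a linear intensity for each probe set, and the submitters' processing notes name MAS5 as the tool. Which version it was, and its scaling target, is not given in the sources used here. From the deposited intensity, 9275 yeast probe sets were taken, 60 controls left out. Signals under 1 were raised to 1 and taken to log2. Probe sets over the background of an array, the 25th percentile of its signals, on at least 3 of 12 arrays were kept (7349). The dated platform annotation named 6504 probe sets with 1 symbol, 328 with several and 2443 with none. A gene was read from its brightest probe set.

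A model of group means over the 12 arrays was fitted in limma 3.58.1 (R 4.3.3) with an intensity trend. The Benjamini-Hochberg adjustment covered the kept probe sets, and the threshold was 0.05. The fit was also run on simulated data of 7349 probe sets for EC1118 over M25 in SJ, with 100 altered at each size. It found 68% of the probe sets given a log2 fold change of 1, and 94% of those given 2. False calls made up 6.90% of its calls. Far fewer probe sets were altered there than the 1454 called in the real data, so these rates may not carry over. Only probe sets with a mean signal above the background of every array were altered, and the rates were not split by signal. They cannot be read for genes near the background. The number of arrays limits the precision.

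Named genes were the 14 largest rises and falls among called genes whose arrays did not overlap, and the 10 largest bounds in each direction. For each of 45 lists the called members with the lowest p were named (4 at most, or the 1 nearest to a call). A short list of wine genes and runs of 3 or more neighbours were named too. Further genes were named after their values were seen, and not all of them are marked so in the text. Among the unmarked are MMT2, PHO4, PHO81, COB, ATP6, COX3, HEM13, FLO8 and SAH1. The members, lists and rule were chosen with earlier results of these data known. Same-numbered replicates of the strains in SJ had correlations of deviations of 0.0575, -0.0392 and -0.0137, so the numbers were not taken as pairs. Alternatives were quantile normalization, median centring, other floors and filters, no trend, a replicate block, SJ arrays alone and leaving out each SJ array.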

Additional observations from a re-analysis of the deposited data

Results flagged for a closer look

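The genes below were set apart because their strain difference, EC1118 over M25, itself differed between SJ and FSJ in limma's interaction test. Each value is the log2 fold change in SJ minus that in FSJ. It was 3.19 for SUL1, 1.508 for VBA2, 1.456 for CDC20, an activator of the anaphase-promoting complex, and 1.666 for YCT1, a cysteine transporter. It was -2.587 for PRM7, -2.358 for YVC1, a vacuolar cation channel, -2.135 for YLF2, -1.839 for PEX19, a peroxisome assembly factor, -1.319 for MMT1 and -1.076 for RIT1, a modifier of initiator transfer RNA. YLF2 averaged 3.97 in M25 in FSJ, under the background, and its call in SJ was lost under 7 alternatives. For PEX19 and RIT1 the strain difference in SJ alone was not called in limma (adjusted p = 0.509 and 0.468). CDC20 averaged 61.1 in EC1118 and 104 in M25 in SJ, and 54.0 in EC1118 and 252 in M25 in FSJ (adjusted p = 0.0441). YVC1 averaged 43.8 in EC1118 and 87.2 in M25 in SJ, and 76.4 in EC1118 and 31.0 in M25 in FSJ, so its sign turned (adjusted p = 0.0441), but its 3 probe sets disagreed in SJ, from -1.05 to 0.12. YCT1 averaged 279 in EC1118 and 202 in M25 in SJ, and 359.9 in EC1118 and 833 in M25 in FSJ (adjusted p = 0.0486). No cause was tested.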

How the results depend on the processing

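The counts of probe sets called in SJ, in each direction, and of those met again in FSJ stayed within 1.5 times under every alternative run. The count of genes lower in EC1118, 487 with all arrays, was 318 to 388 with any 1 SJ array left out. It was 318 without M25 replicate 1 and 322 without M25 replicate 2. Among 221 named genes called in SJ, none turned its direction. Genes named without a call were outside these 221, as were some genes named later, such as ARG1, LEU1 and FLO8. Leaving out 1 SJ array gave 1011 to 1144 probe sets called (503 to 559 higher, 508 to 597 lower) and 834 to 931 met again in FSJ. The replicate block gave 1347, and the 6 SJ arrays alone 1812. With these 6 alone, 5 genes fell in the sterol uptake list, 8 rose in the trehalose and glycogen list and 10 in the heat shock list. Without EC1118 in FSJ replicate 2, 3 named genes lost their call in SJ, RPS25A among them. The interaction count was less stable, at 15 with all arrays, 8 with quantile normalization, 60 with arrays centred on their medians, 4 with the replicate block, 6 without EC1118 in FSJ replicate 2, and 2 to 7 with 1 SJ array left out; the cause was not tested. Of the same 221 named genes, 154 kept their call under all 17 alternatives. The medians of the DAN and TIR, galactose and cytosolic ribosomal lists and of chromosome I changed sign with the scaling. Signal close to background limits what can be read of weak genes.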

Other observations

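Among multidrug and stress transporters outside the account above, 3 of 27 measured genes rose (11.1%) and 4 fell (14.8%) in EC1118. Of all genes 9.05% rose and 9.09% fell. TPO2, a polyamine exporter, had signals of 288, 404 and 488 in EC1118, against 807, 979 and 1069 in M25 (log2 fold change -1.30, SE 0.19, adjusted p = 0.000609), on a probe set that reads a related gene. QDR3, another exporter, had 491, 356 and 388 in EC1118, against 899.5, 909 and 882 in M25 (log2 fold change -1.14, SE 0.14, adjusted p = 0.000171). In both genes the arrays of the strains did not overlap.

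The pheromone MFA2 had 85.0, 140.4 and 91.2 in EC1118, against 382, 281 and 329 in M25 (log2 fold change -1.67, SE 0.32, adjusted p = 0.00316), and it was the 1 gene called among 28 of pheromone and mating type. The alpha-factor gene MF(ALPHA)1 had overlapping ranges, with 838, 407 and 616 in EC1118 and 680.5, 513 and 597 in M25 (adjusted p = 0.995). HEM13, an oxygen-responsive heme gene, had 1630.4, 1862 and 2004 in EC1118, against 2238, 649 and 1931 in M25, where replicate 2 stood apart (adjusted p = 0.591).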
